A study of Mus musculus with 8 samples.

Results

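The ribosome biogenesis genes are 34 genes, chosen by symbol from the gene lists of the deposited matrices and all found among the 33696 genes there. They were chosen with earlier results of these data known. Most of their products act in making ribosomes in the nucleolus, where RNA polymerase I transcribes the ribosomal RNA precursor, small nucleolar ribonucleoproteins (snoRNPs) guide its methylation and pseudouridylation, and assembly factors cut, fold and export the ribosomal subunits. The oncoprotein Myc is known to raise transcription of many of these genes and of polyamine enzymes, which work outside the nucleolus, and a quiescent liver makes few new ribosomes. The members fall into 8 roles: nucleolar scaffold and assembly (Ncl, Npm1, Nolc1, Gnl3, Mybbp1a), RNA polymerase I (Polr1a, Polr1b), box C/D snoRNP (Fbl, Nop56, Nop58, Rrp9), box H/ACA snoRNP (Dkc1, Nhp2, Gar1), small subunit (Utp20, Wdr43, Nop14, Noc4l, Pno1, Nob1, Rrp12), large subunit (Pes1, Bop1, Wdr12, Ppan, Nop2, Nop16, Rrs1, Nip7, Ddx18, Rrp1b), the nucleolar helicase Ddx21, and polyamine synthesis (Srm, Odc1).

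The data are counts of unique molecular identifiers (UMIs) from 6 single-cell libraries made in droplets from mouse livers with tumours. The 3 knockout libraries were from Ncr1iCre, Nr4a1 fl/fl mice, in which Cre expressed from Ncr1, a gene of NK cells and ILC1, deletes floxed Nr4a1, which encodes a nuclear receptor, and the 3 control libraries were from Nr4a1 fl/fl mice lacking Cre, which the sample labels call WT. Both groups were male C57BL/6 mice injected through the tail vein at 8 to 10 weeks of age with plasmids that carry c-Myc on a transposon, the SB13 transposase and a CRISPR-Cas9 guide against Trp53, and livers were taken 4 to 5 weeks later. Knockout 3 pooled 2 mice and control 3 pooled 3 mice, and for the other libraries the labels say only that they are biological replicates, so p-values measure the spread between libraries. Both groups thus carry the same Myc tumour model. Nr4a1 stood at 137.8, 0 and 69.7 CPM (counts per 1000000 UMIs) in NK cells and ILC1 of knockouts 1, 2 and 3, against 79.8, 35.01 and 48.8 CPM in those of controls 1, 2 and 3, with 3 UMIs worth 23.4 CPM in knockout 2. The groups overlapped, and these 3′ counts, which may lie outside the floxed part that the labels do not locate, do not check the genotype.

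Cells were put into classes by their shares of marker UMIs, with no member among the markers. The thresholds were set after marker values, and those of Ncl and Npm1, had been seen, so the classes are not independent of these 2 members. Of 20130 kept cells, 1500 were tumour-type hepatocytes, which carry hepatocyte markers together with oncofetal ones such as Afp and H19, 362 were other hepatocytes and 10964 were blood cells. Tumour-type cells numbered 136, 9 and 565 in knockouts 1, 2 and 3 and 419, 34 and 337 in controls 1, 2 and 3, so knockout 2, with fewer than 10, entered no test of them. Other hepatocytes numbered 140 in knockout 3, 48 in control 1 and 168 in control 3, and 1 to 3 cells in each of the other libraries, which were left out of their comparison. The summed tumour-type markers stood at 5125 to 5627 CPM in tumour-type cells of the 5 libraries used, against 68.5 to 100.3 CPM in other hepatocytes, and the summed hepatocyte markers at 12630 to 17430 CPM against 90140 to 110300 CPM. The calls were made with these markers, so their separation was set by the thresholds and is no separate check of the classes. Tumour-type cells were far deeper, with a median of 80805 UMIs per cell against 2135.5 in other hepatocytes, and 5256 cells with a median of 1817 UMIs were left without a class. Libraries 2 stood apart, with a median mitochondrial share of 31.2% in knockout 2 and 18.9% in control 2, against 2.98% to 6.38% in the other libraries, and with 134 and 547 kept cells. The 6 libraries shared at most 14 cell barcodes between any pair.

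As a sum, the members took up far more of the RNA of tumour-type hepatocytes than of any other class with at least 3 libraries. In tumour-type cells they made up 1.295% and 1.125% of all UMIs in knockouts 1 and 3 and 1.228%, 1.223% and 1.173% in controls 1, 2 and 3, a mean of 1.209% ± 0.064 (SD, n = 5 libraries). Other hepatocytes held 0.134% in knockout 3, 0.226% in control 1 and 0.146% in control 3, and the highest of them lay below the lowest tumour-type library. NK cells and ILC1 (0.347% ± 0.038, SD, n = 6) and T cells (0.339% ± 0.038, SD, n = 5) came next in the order and differed by less than their spread. B cells followed with 0.191% ± 0.020 (SD, n = 5), monocytes and macrophages with 0.181% ± 0.035 (SD, n = 5), dendritic cells with 0.175% ± 0.065 (SD, n = 5), endothelial cells with 0.169% ± 0.026 (SD, n = 5), other hepatocytes with 0.169% ± 0.050 (SD, n = 3) and basophils and mast cells with 0.154% ± 0.030 (SD, n = 5), and these neighbours were not separated beyond their spread. Neutrophils were lowest at 0.083% ± 0.057 (SD, n = 6), with single libraries between 0.014% and 0.171%. The sum leans on 2 members, Ncl and Npm1, which averaged 2655 and 4199 CPM in tumour-type cells (n = 5). The next member there, Nhp2, averaged 645.0 CPM.

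**Figure D1:**
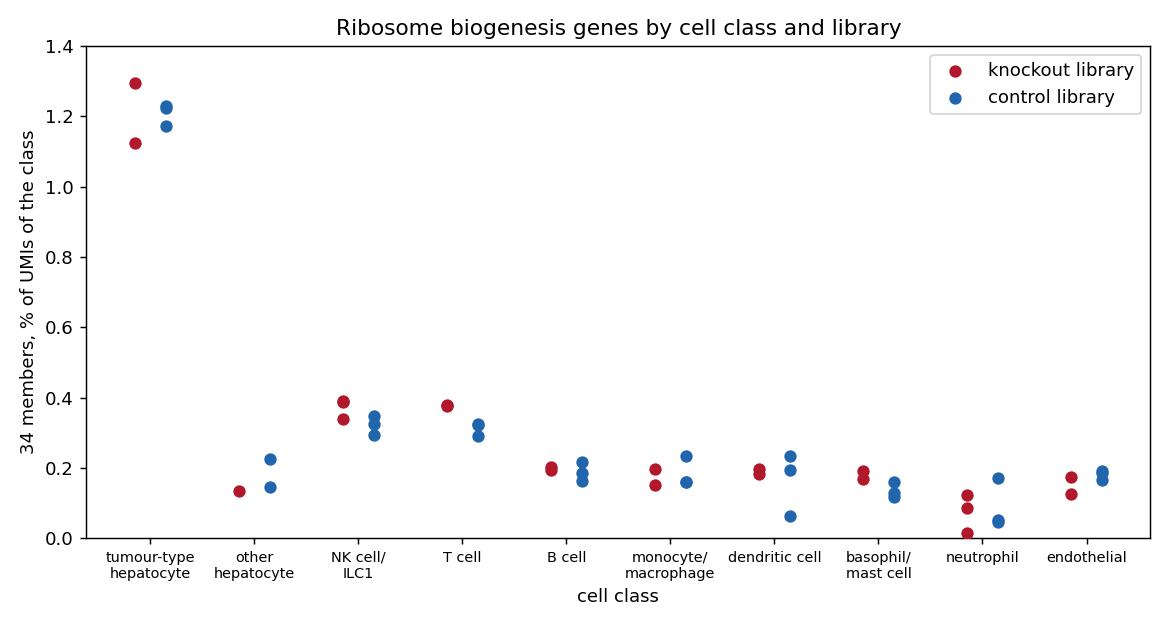
Summed UMIs of the 34 members as a percent of all UMIs of a class (vertical axis, linear from 0) for the 10 classes with at least 3 libraries of 10 or more cells (horizontal axis); each point is 1 library, knockout left of control. Tumour-type hepatocytes lie between 1.125% and 1.295%, and every point of the other classes lies at or below 0.390%.

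The classes of hepatocyte were as far apart cell by cell. The median tumour-type cell gave 1.268% and 1.108% of its UMIs to the members in knockouts 1 and 3 and 1.205%, 1.265% and 1.150% in controls 1, 2 and 3, whereas the median other hepatocyte gave 0.157% in knockout 3, 0.217% in control 1 and 0.155% in control 3. The 10th percentile of tumour-type cells was at least 0.768% in these libraries, above the 90th percentile of other hepatocytes, which reached 0.405%. With each cell thinned to 1000 UMIs, so that depth was equal, tumour-type cells held on average 11.3 to 13.3 member UMIs and other hepatocytes 1.48 to 2.20. Barcodes of at most 100 UMIs, which sample free RNA in the droplets, held 0.617% member UMIs in knockout 3 and 0.474% in control 3, both above the other hepatocytes of the same libraries. The part of free RNA in the levels of other hepatocytes was not tested.

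**Figure D2:**
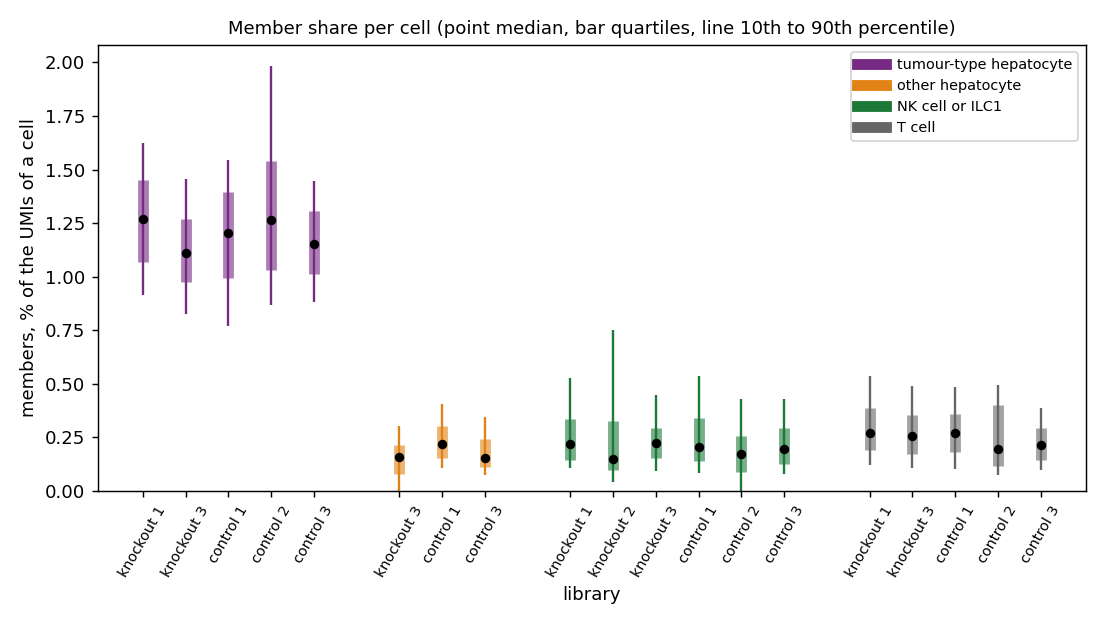
Member share of the UMIs of single cells (vertical axis, percent) by library (horizontal axis) in 4 classes; points are medians, thick bars quartiles and thin lines the 10th to 90th percentile over cells. Medians of tumour-type cells run from 1.108% to 1.268%, and the lowest of their 10th percentiles, 0.768%, is above the 90th percentiles of other hepatocytes.

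Within the tumour-type class the share moved modestly with proliferation. Among the cells with the highest share of 24 proliferation genes the median member share was 1.345% in knockout 1 (34 of 136 cells), 1.140% in knockout 3 (141 of 565), 1.280% in control 1 (104 of 419), 1.535% in control 2 (8 of 34) and 1.181% in control 3 (84 of 337). Among equally many cells with the lowest share it was 1.143% in knockout 1, 1.028% in knockout 3, 1.052% in control 1, 1.218% in control 2 and 1.082% in control 3, so the more proliferative cells were higher in 5 of 5 libraries. These lowest medians still lay above the 90th percentile of other hepatocytes. The same split by depth had no common direction, with 1.147% in the deepest and 1.628% in the shallowest cells of control 2 (8 each), and 1.273% and 0.947% in those of control 1 (104 each). By the share of tumour-type markers, the cells richest in them had the lower median member share in knockout 3 (1.041% against 1.108%), control 1 (1.078% against 1.255%), control 2 (1.383% against 1.511%) and control 3 (1.153% against 1.185%), and the higher one in knockout 1 (1.233% against 1.162%). These are descriptions over cells of a library, with no test.

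Tumour-type hepatocytes were compared with other hepatocytes of the same library in knockout 3, control 1 and control 3. Of 34 members, 33 rose in tumour-type cells (edgeR's quasi-likelihood test, adjusted p under 0.05 over all 12879 genes tested) and none fell, where 26.1% of all genes tested were called higher. A gene was tested if its counts sufficed in either class. Members scarce in other hepatocytes could thus enter through tumour-type cells alone, which tilts this count towards a rise. The median log2 fold change of the members was 2.34, against 0.43 for all genes tested, and 31 of 34 members lay more than 1 log2 unit above the all-gene median. The share of all genes that lay so far above it was not counted. The largest adjusted p of the 33 was 0.00249, for Nop16, and Pno1 was the exception. The fits scale libraries by TMM normalization factors, which CPM values and UMI shares leave out. Without these factors the member median was 2.76 and the all-gene median 0.87. CPM values of the 2 hepatocyte classes thus show larger rises than the fitted log2 fold changes. In this comparison the residual spread was estimated as common to all genes, since 3 pairs leave little to tell genes apart, so the small p-values rest on that shared estimate. DESeq2 also called 33, and the share of all genes it called is not given.

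**Figure D3:**
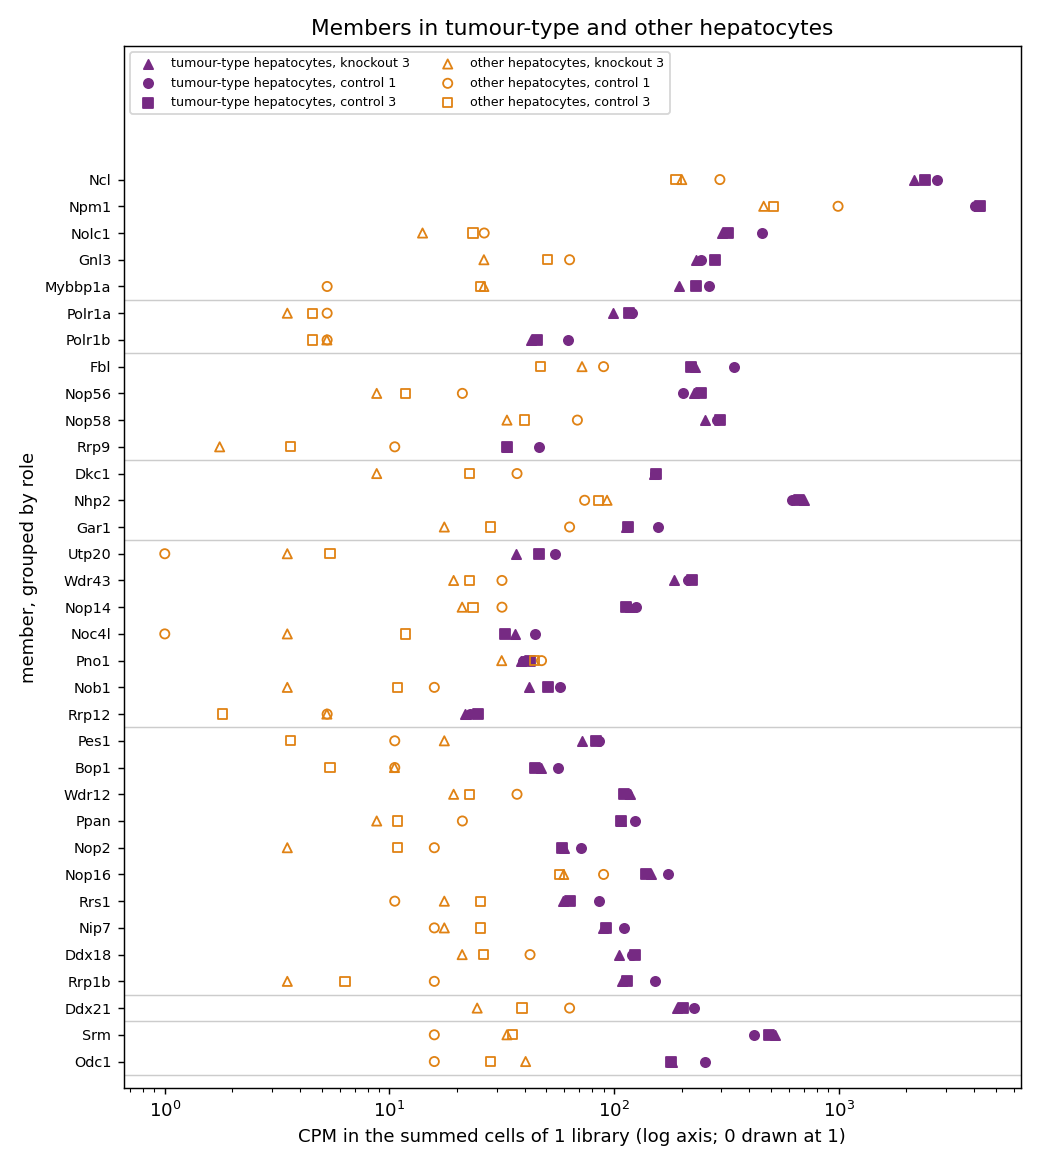
CPM of each member (rows, grouped by role) in the summed cells of knockout 3, control 1 and control 3, on a log axis; filled symbols are tumour-type hepatocytes, open symbols other hepatocytes, and 0 is drawn at 1. The filled and open symbols of 33 members do not overlap, and those of Pno1 do, with no such count made over all genes.

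All 5 nucleolar scaffold and assembly members rose, with a median log2 fold change of 2.88. Ncl, the abundant RNA-binding nucleolin, held 2163, 2742 and 2424 CPM in tumour-type hepatocytes of knockout 3, control 1 and control 3, against 200.1, 295.7 and 188.4 CPM in the other hepatocytes of the same libraries. Its log2 fold change was 3.05 ± 0.16 (SE), and the lowest tumour-type library was above the highest other one, as held for every member but Pno1. How many of all genes were separated in this way was not counted. Npm1, the nucleophosmin that organises the granular part of the nucleolus, held 4228, 4035 and 4242 CPM against 463.4, 992.8 and 511.7 CPM, a log2 fold change of 2.36 ± 0.14 (SE). Processed copies of Npm1 exist in the genome and could take or give reads, so its level is less certain. Nolc1, a chaperone of snoRNPs, held 300.9, 457.1 and 322.3 CPM against 14.0, 26.4 and 23.6 CPM in the same order of libraries, a log2 fold change of 3.60 ± 0.25 (SE). Mybbp1a, a nucleolar protein that binds Myb, held 193.7, 263.7 and 231.2 CPM against 26.3, 5.28 and 25.4 CPM (log2 fold change 2.88 ± 0.26, SE). The other hepatocytes of control 1 were lowest for Mybbp1a (1 UMI) but highest for Ncl, Npm1, Nolc1 (5 UMIs) and Gnl3. Gnl3, the GTPase nucleostemin, held 232.6, 242.9 and 280.7 CPM against 26.3, 63.4 and 50.7 CPM, a log2 fold change of 2.12 ± 0.23 (SE).

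Both RNA polymerase I subunits rose. Polr1a, the largest catalytic subunit, held 98.9, 120.7 and 116.4 CPM in tumour-type cells of knockout 3, control 1 and control 3, against 3.51, 5.28 and 4.53 CPM in other hepatocytes. Its log2 fold change of 4.25 ± 0.41 (SE) was the largest of the 34, but rests on 8 UMIs in other hepatocytes. Polr1b, the second catalytic subunit, held 42.7, 62.3 and 45.4 CPM against 5.27, 5.28 and 4.53 CPM (9 UMIs), a log2 fold change of 2.82 ± 0.47 (SE). In all, 5 members had fewer than 10 UMIs over the 3 other-hepatocyte libraries, and the counts ran from 6 (Rrp12) to 1017 (Npm1).

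The 4 box C/D members rose by a median of 2.51 on the log2 scale. The snoRNPs of Fbl, Nop56 and Nop58 place 2′-O-methyl groups on ribosomal RNA. Nop56, a core protein of these particles, held 225.9, 203.0 and 243.0 CPM in tumour-type cells of knockout 3, control 1 and control 3, against 8.78, 21.1 and 11.8 CPM in other hepatocytes, a log2 fold change of 3.82 ± 0.30 (SE). Its partner Nop58 held 253.5, 286.3 and 294.9 CPM against 33.4, 68.7 and 39.9 CPM (log2 fold change 2.27 ± 0.23, SE). Fbl, the methyltransferase of the same particle, changed less, by 1.53 ± 0.22 (SE) on the log2 scale. Rrp9, which binds the U3 snoRNA, held 33.5, 46.3 and 33.5 CPM against 1.76, 10.6 and 3.62 CPM, a log2 fold change of 2.76 ± 0.52 (SE) on 7 UMIs in other hepatocytes.

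The 3 box H/ACA members, which belong to the pseudouridylation particles and to telomerase, rose as well. Nhp2 held 702.5, 617.2 and 667.0 CPM in tumour-type cells of knockout 3, control 1 and control 3, against 93.0, 73.9 and 85.1 CPM in other hepatocytes, a log2 fold change of 2.55 ± 0.19 (SE). Dkc1, the pseudouridine synthase, had a log2 fold change of 2.51 ± 0.29 (SE). Gar1 held 113.2, 156.5 and 115.2 CPM against 17.6, 63.4 and 28.1 CPM, a smaller log2 fold change of 1.60 ± 0.27 (SE).

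Of the 7 small subunit members, 6 rose and Pno1 did not pass. Wdr43, a subunit of the small subunit processome, held 184.7, 213.2 and 221.5 CPM in tumour-type cells of knockout 3, control 1 and control 3, against 19.3, 31.7 and 22.6 CPM in other hepatocytes, a log2 fold change of 2.74 ± 0.27 (SE). Utp20 (2.97 ± 0.50, SE), Rrp12 (2.36 ± 0.60), Nob1, the nuclease that makes the 3′ end of 18S ribosomal RNA (2.01 ± 0.41), Nop14 (1.85 ± 0.29) and Noc4l (1.83 ± 0.45) had the other log2 fold changes, and Rrp12 did not pass without control 3 (edgeR adjusted p = 0.164). Utp20 and Noc4l had no UMI in other hepatocytes of control 1, where 3 UMIs would be 15.8 CPM. Pno1, the partner that places Nob1 on the pre-40S particle, held 38.4, 39.2 and 42.2 CPM in tumour-type cells, against 31.6, 47.5 and 44.4 CPM in other hepatocytes. The groups overlapped, and the log2 fold change was -0.43 ± 0.31 (SE; edgeR adjusted p = 0.258).

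All 10 large subunit members rose, with a median log2 fold change of 1.99. Rrp1b, a nucleolar protein of pre-60S maturation, held 108.9, 151.5 and 113.9 CPM in tumour-type cells of knockout 3, control 1 and control 3, against 3.51, 15.8 and 6.34 CPM in other hepatocytes, a log2 fold change of 3.72 ± 0.37 (SE). The 3 members of the PeBoW complex, which is needed to process the 28S precursor, had log2 fold changes of 2.68 ± 0.38 (Pes1), 2.15 ± 0.43 (Bop1) and 1.82 ± 0.29 (Wdr12). Ppan (2.81 ± 0.34), the cytosine methyltransferase Nop2 (2.32 ± 0.40), Nip7 (1.73 ± 0.31), the helicase Ddx18 (1.67 ± 0.28) and Rrs1 (1.28 ± 0.33) had the other values above that of Nop16 (all SE). Nop16 held 145.7, 174.3 and 138.0 CPM in tumour-type cells, against 59.7, 89.8 and 57.1 CPM in other hepatocytes, and its log2 fold change of 0.78 ± 0.23 (SE) was only 0.34 above the median of all genes. It no longer passed without knockout 3 (log2 fold change 0.79, edgeR adjusted p = 0.0546) or without control 3 (0.75, edgeR adjusted p = 0.0774).

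The helicase Ddx21, which acts on RNA polymerase I transcripts, held 190.1, 226.8 and 202.8 CPM in tumour-type cells of knockout 3, control 1 and control 3, against 24.6, 63.4 and 39.0 CPM in other hepatocytes, a log2 fold change of 2.00 ± 0.24 (SE). Both polyamine enzymes rose. Srm, the spermidine synthase, held 520.9, 418.8 and 490.1 CPM against 33.4, 15.8 and 35.3 CPM, a log2 fold change of 3.54 ± 0.23 (SE). Odc1, the ornithine decarboxylase that starts the pathway, held 181.8, 254.4 and 178.8 CPM against 40.4, 15.8 and 28.1 CPM (log2 fold change 2.24 ± 0.25, SE). Among the 3 tumour-type libraries control 1 had the lowest Srm and the highest Odc1.

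Depth was narrowed in one alternative and made equal in another. With cells of 1000 to 10000 UMIs only, chosen after seeing the data, 25 members could be tested, 21 of them rose and the median log2 fold change was 2.14, with 62, 16 and 11 tumour-type cells in knockout 3, control 1 and control 3. These tumour-type cells were still deeper, with a mean of 4808, 4624 and 4967 UMIs per cell, against 2934, 3603 and 3241 in the other hepatocytes of the same libraries. The all-gene median was then -0.05. With every cell thinned to 1000 UMIs, 24 of the 26 testable members rose. In both alternatives, as in the main fit, a gene was testable if its counts sufficed in either class. Members scarce in other hepatocytes could thus enter through tumour-type cells alone, which tilts these counts towards a rise. The share of all tested genes that rose is not given for these alternatives. Proliferation genes moved with the members in this comparison: all 24 of that list rose, by a median log2 fold change of 3.09, and Mki67 stood at 112.6, 165.2 and 118.3 CPM in tumour-type cells of knockout 3, control 1 and control 3, against 0, 10.6 and 8.15 CPM in other hepatocytes. The Myc gene stood at 38.0, 36.8 and 50.3 CPM in tumour-type cells of these libraries, against 1.76, 0 and 4.53 CPM in other hepatocytes, but whether reads of the injected c-Myc are counted in it is not given in the sources used here. Their part in the difference was not tested.

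Other genes of the pathway, taken from lists by function, mostly rose in the same comparison but by less. Members and lists were chosen with earlier results of these data known, so the gap between them is not independent of that choice. Of 51 other large subunit assembly factors 39 rose and none fell (median log2 fold change 1.60), of 49 other small subunit factors 31 rose and Rcl1 fell (1.22), of 18 other RNA polymerase I genes 12 rose and Polr2l and Polr1h fell (1.13), of 11 further snoRNP genes 9 rose (1.29) and of 12 exosome genes 8 rose (1.48). The clearest by p were Rsl1d1 and Mrto4 (2.46 ± 0.23 and 2.42 ± 0.24, SE) for the large subunit and Pdcd11 and Nol11 (3.50 ± 0.42 and 2.43 ± 0.35, SE) for the small subunit. Polr2l, a small subunit shared by the nuclear RNA polymerases, fell by 1.51 on the log2 scale (SE 0.20), while Taf1d, of the promoter factor SL1, rose by 2.26 ± 0.27 (SE). Of 18 nucleotide synthesis genes 15 rose and Paics, of purine synthesis, fell, with a median of 2.10, and the smallest p was that of Impdh2 of guanine nucleotide synthesis (2.87 ± 0.25, SE).

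The ribosomal proteins themselves changed by smaller amounts. For the cytosolic large subunit 45 of 46 genes rose, with a median log2 fold change of 0.93, and for the small subunit 32 of 33 rose (0.95) and Rps27l fell. The median of all genes was 0.43. Rpl14, for example, held 3481, 3167 and 3198 CPM in tumour-type cells of knockout 3, control 1 and control 3, against 721.5, 776.3 and 807.9 CPM in other hepatocytes. Of 38 mitochondrial ribosomal protein genes 8 rose and 5 fell (Mrpl14, Mrpl16, Mrps21, Mrps24 and Mrps33), with a median of 0.06. In the rest of the polyamine pathway 3 of 9 genes rose and 5 fell. Sms, the spermine synthase, rose by 2.26 ± 0.30 (SE), whereas Oaz1, the antizyme that targets Odc1 for degradation, fell by 1.20 on the log2 scale (SE 0.14), as did Oaz2, Azin1, Sat1 and Paox. Single genes that fell, other than Polr2l, Oaz1 and Mrpl14, were named after their values were seen.

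The hexanucleotide CACGTG, the E-box bound by Myc with Max, was searched on both strands, which read alike, from 250 bases before to 50 bases after each RefSeq gene start (GRCm38.p6). Of the 34 members 28 had an entry, and 6 of them (21.4%) held it, against 8.1% of 27025 genes in the table and 11.9% of the 9905 tested genes with an entry. Npm1, Fbl, Rrp12, Bop1, Rrs1 and Srm had no entry. The 6 sites are shown because they include Pno1, the member that did not rise, while the promoter of Polr1a, with the largest change, had none in this window. Each line gives 30 bases, 5′ to 3′ on the strand of the gene, with the E-box in capitals.
Mybbp1a, chr11:72441347-72441376, plus strand: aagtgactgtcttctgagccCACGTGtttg
Utp20, chr10:88826765-88826794, minus strand: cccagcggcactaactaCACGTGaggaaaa
Wdr43, chr17:71616220-71616249, plus strand: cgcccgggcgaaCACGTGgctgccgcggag
Pno1, chr11:17211540-17211569, minus strand: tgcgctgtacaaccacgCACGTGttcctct
Pes1, chr11:3963965-3963994, plus strand: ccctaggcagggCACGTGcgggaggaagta
Nop2, chr6:125131811-125131840, plus strand: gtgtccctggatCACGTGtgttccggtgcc
Only that of Nop2 begins before the gene start, at position -60. The others begin at positions 3 (Pes1), 18 (Wdr43), 38 (Utp20 and Pno1) and 41 (Mybbp1a), counted from 1 at the gene start. These matches are descriptions of sequence and not of binding.

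Tumour-type hepatocytes were also set against the blood cells of the same library, in knockouts 1 and 3 and controls 1, 2 and 3. All 34 members rose (edgeR's quasi-likelihood test, adjusted p under 0.05 over 14246 genes), where 40.6% of all genes tested were called higher and 43.0% lower. The median log2 fold change of the members was 2.01, against -0.06 for all genes, and adjusted p-values ran up to 1.52e-05. Tumour-type and blood levels did not overlap for 33 members, the exception being Rrp9, where tumour-type cells of control 2 held 19.4 CPM. The share of all genes without overlap was not counted, so this count is not by itself a trait of the members. Against T cells alone the median was 1.69 and against monocytes and macrophages alone 2.42, with all 34 members rising in each case. The share of all genes that rose in these further fits is not given.

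The ranking of the members by fold differed between the 2 comparisons, which share the tumour-type cells. Srm had the largest difference from blood: it held 442.3 and 520.9 CPM in tumour-type cells of knockouts 1 and 3 and 418.8, 462.9 and 490.1 CPM in those of controls 1, 2 and 3, against 22.2 and 38.9 CPM in blood cells of knockouts 1 and 3 and 24.5, 28.6 and 29.9 CPM in those of controls 1, 2 and 3, a log2 fold change of 4.24 ± 0.13 (SE). Nhp2 (3.08 ± 0.15), Nop16 (2.97 ± 0.11) and Polr1b (2.88 ± 0.11) followed. Nop16, with the smallest called change against other hepatocytes, thus had the third largest here. Its level was 102.6 to 174.3 CPM in tumour-type cells and 14.9 to 25.4 CPM in blood cells, with 57.1 to 89.8 CPM in other hepatocytes between them. Pno1 differed from blood by 1.31 ± 0.11 (SE) on the log2 scale, at 30.5 to 47.2 CPM in tumour-type cells and 14.9 to 20.3 CPM in blood cells. The smallest differences were those of Ddx21 (1.09 ± 0.10), which stood at 190.1 to 246.6 CPM in tumour-type cells and 103.1 to 156.6 CPM in blood cells, and Nob1 (1.13 ± 0.10, all SE).

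**Figure D4:**
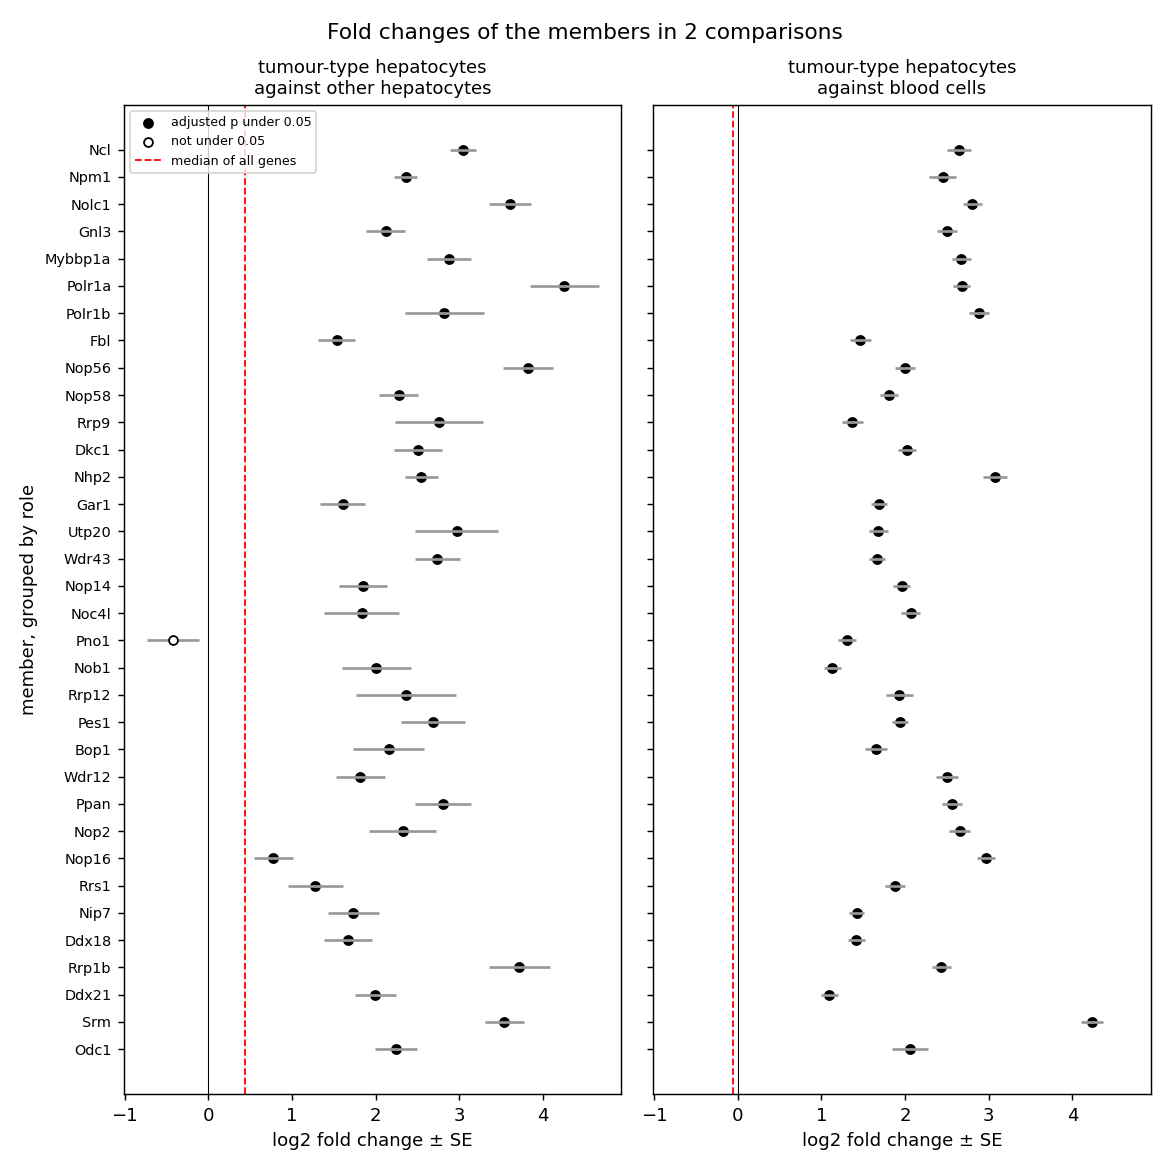
Log2 fold change with SE of each member (rows, grouped by role) for tumour-type against other hepatocytes (left) and against blood cells (right); filled points have an adjusted p under 0.05, and the dashed line is the median of all genes tested, 0.43 on the left and -0.06 on the right. Pno1 is the open point on the left, and Nop16 moves from 0.78 on the left to 2.97 on the right.

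Myc stood at 55.8 and 38.0 CPM in tumour-type cells of knockouts 1 and 3 and 36.8, 47.1 and 50.3 CPM in those of controls 1, 2 and 3, against 31.8 and 27.5 CPM in blood cells of knockouts 1 and 3 and 34.3, 29.8 and 31.8 CPM in those of controls 1, 2 and 3. These groups did not overlap, and the log2 fold change was 0.70 ± 0.13 (SE; edgeR adjusted p = 0.000610). Of 9 tested genes of the Myc network, Myc and Mxi1 rose against blood and Max, Mnt, Mxd1, Mxd3 and Mxd4 fell, with a median log2 fold change of -0.68, whereas against other hepatocytes 6 rose and 2 fell (1.20). Genes of this list other than Myc were named after their values were seen. Mitochondrial ribosomal protein genes, which were near no change between the hepatocyte classes, rose in 37 of 38 cases (median log2 fold change 1.77). Of the 24 proliferation genes 20 rose and 1 fell (1.01), with Mki67 at a log2 fold change of 0.34 ± 0.14 (SE; edgeR adjusted p = 0.0506). Cytosolic ribosomal protein genes had medians of 0.63 (large subunit, 30 of 46 rose) and 0.47 (small subunit, 19 of 33 rose and 1 fell).

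Across the 10 classes with at least 3 libraries, 33 members had their highest mean level in tumour-type hepatocytes. Pno1 averaged 41.2 ± 8.4 CPM (SD, n = 3) in other hepatocytes and 39.5 ± 6.1 CPM (SD, n = 5) in tumour-type cells, a difference within the spread. Among the 7 blood classes 21 members were highest in NK cells and ILC1, 7 in T cells and 25 were lowest in neutrophils. Neutrophil counts were small, with 4 member UMIs in knockout 2 and 27 in control 2. The shares of all genes with these highest or lowest classes, tumour-type hepatocytes included, were not counted. These counts are therefore not by themselves a trait of the members. Ncl averaged 723.8 ± 165.4 CPM in NK cells and ILC1 (SD, n = 6), 573.5 ± 99.4 CPM in T cells (SD, n = 5) and 182.0 ± 89.2 CPM in neutrophils (SD, n = 6), and the NK and T cell values overlapped. Npm1 had the opposite order of these lymphocytes, at 1085 ± 119.0 CPM in NK cells and ILC1 (SD, n = 6) and 1228 ± 139.1 CPM in T cells (SD, n = 5), which also overlapped.

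Knockout and control libraries were then compared within each class, the question being whether loss of Nr4a1 in NK cells and ILC1 goes with other levels of these genes in them or in the cells around them. No member passed in any of the 7 classes tested, with edgeR or with DESeq2, and the only member with an unadjusted p under 0.05 was Wdr12 in T cells. The background was as low, with 0.0136% of 7327 genes called higher in NK cells and ILC1 and 0% in the other 6 classes. Other hepatocytes were not tested, since knockout 3 was the only knockout library with at least 10 of them.

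In tumour-type hepatocytes, knockouts 1 and 3 against controls 1, 2 and 3, the 34 members had a median log2 fold change of -0.01 and lay between -0.29 and 0.17, with standard errors of 0.16 to 0.22. The smallest p was that of Polr1b, with 51.5 and 42.7 CPM in knockouts 1 and 3, against 62.3, 77.6 and 45.4 CPM in controls 1, 2 and 3 (edgeR adjusted p = 1.000). Next was Rrp1b with 136.4 and 108.9 CPM in the knockouts, against 151.5, 166.3 and 113.9 CPM in the controls. The libraries numbered 3 were the lower ones of each group for both genes.

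In NK cells and ILC1, the cells that carry the Cre, 31 members could be tested in 3 knockout and 3 control libraries, and the median log2 fold change was 0.21 against 0.00 for all genes. Their summed share was 0.390%, 0.389% and 0.338% in knockouts 1, 2 and 3, against 0.349%, 0.325% and 0.293% in controls 1, 2 and 3, and the groups overlapped, while the knockout was higher in 3 of 3 same-numbered pairs. Ncl held 765.3, 1023 and 681.1 CPM in the knockouts, against 688.8, 654.9 and 529.7 CPM in the controls, a log2 fold change of 0.40 ± 0.21 (SE; edgeR adjusted p = 1.00), and was likewise higher in 3 of 3 pairs. With the replicate number as a block, the member median was 0.195, Ncl had a log2 fold change of 0.38 (edgeR adjusted p = 0.999), and no member passed. Pno1 had the smallest p, with 23.96, 7.81 and 34.8 CPM in the knockouts, against 20.5, 12.4 and 14.8 CPM in the controls, and its level in knockout 2 is a single UMI. The median fell to 0.08 without knockout 1 and to 0.09 without control 3.

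In T cells 33 of 34 members had a positive log2 fold change in knockouts 1 and 3 against controls 1, 2 and 3, with a median of 0.27 and a range of -0.15 to 0.59, while 53.4% of all genes were positive with a median of 0.02. None passed after adjustment. The members' share of UMIs was 0.376% and 0.378% in the knockouts, against 0.325%, 0.322% and 0.292% in the controls, and these groups did not overlap. Wdr12 had the smallest p, with 37.1 and 32.5 CPM in the knockouts, against 17.0, 33.9 (3 UMIs) and 25.4 CPM in the controls (log2 fold change 0.59 ± 0.26, SE; edgeR adjusted p = 1.000), and Nop58 held 130.6 and 135.1 CPM in the knockouts, against 112.2, 90.4 and 97.6 CPM in the controls. The median member share of single T cells was 0.271% and 0.254% in the knockouts, against 0.268%, 0.197% and 0.215% in the controls, and these overlapped. Cytosolic ribosomal protein genes had medians of 0.17 and 0.20 in the same fit, and proliferation genes 0.05. Summed tumour-type markers, which T cells should lack, stood at 45.2 and 123.4 CPM in T cells of knockouts 1 and 3, against 138.6, 22.6 and 114.4 CPM in those of controls 1, 2 and 3. Their part in the difference was not tested.

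**Figure D5:**
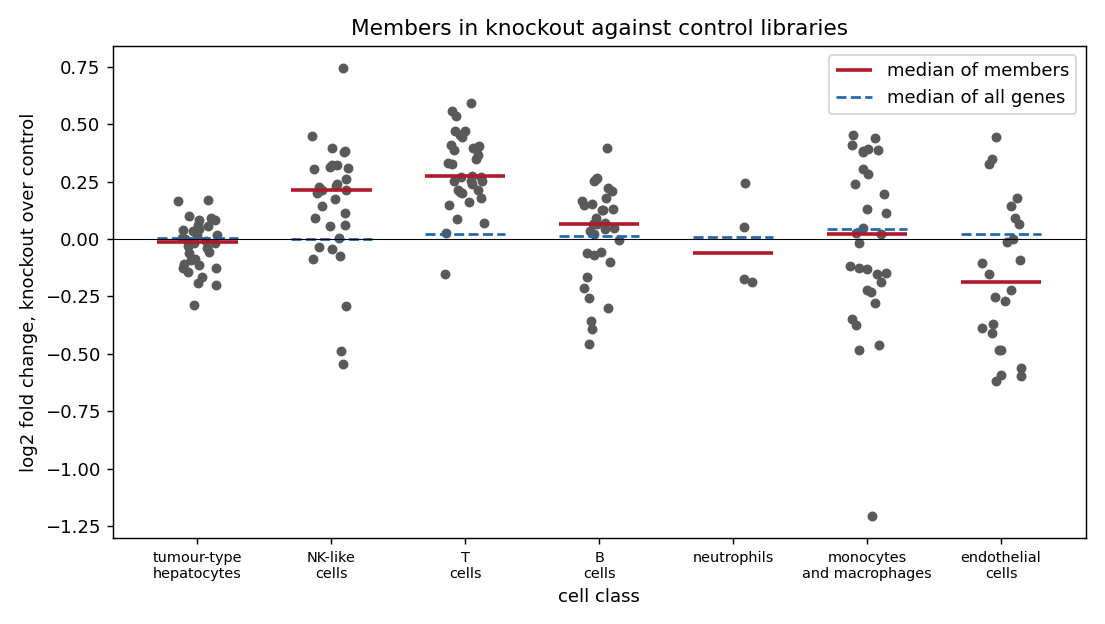
Log2 fold change of each tested member, knockout over control (vertical axis), in 7 classes (horizontal axis); points are members, the solid line is their median and the dashed line the median of all genes tested. Medians are -0.01 in tumour-type hepatocytes, 0.21 in NK-like cells (NK cells and ILC1) and 0.27 in T cells, and no point passed an adjusted p under 0.05.

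In the other classes the members' medians stood at 0.06 in B cells (33 tested), 0.02 in monocytes and macrophages (31 tested), -0.19 in endothelial cells (24 tested) and -0.06 in neutrophils, where only 4 members had enough counts. The members with the smallest p were Nolc1 and Nob1 in B cells (log2 fold changes -0.39 ± 0.29 and 0.40 ± 0.32, SE), Bop1 and Fbl in monocytes and macrophages (-1.21 ± 0.56 and 0.39 ± 0.33), Ncl and Nop14 in endothelial cells (-0.60 ± 0.38 and -0.62 ± 0.48) and Ncl and Nhp2 in neutrophils (-0.19 ± 0.65 and 0.24 ± 0.86). Bop1 rested on 14 and 6 UMIs in monocytes and macrophages of knockouts 1 and 3, against 15, 1 and 26 UMIs in controls 1, 2 and 3. Standard errors were 0.33 to 1.04 in the last 3 of these classes, and Bop1, at -1.21 ± 0.56 (SE), did not pass. Differences well above their standard error could thus go undetected at this depth.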

How the data were processed

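Per the file headers, each deposited matrix is the output of Cell Ranger, version 7.0.1 for libraries 1 and 2 and 9.0.1 for libraries 3, and its values are unnormalized UMI counts. The submitters' processing notes name Cell Ranger 9.0.1 and the genome GRCm39, and library preparation was 10x 3′, per the labels' protocols. Gene counts per library ran from 4126740 to 122609032. Kept barcodes had 500 or more UMIs, 300 or more genes and a mitochondrial share of no more than 20%, and in libraries 3 also a profile unlike that of barcodes of at most 100 UMIs. The highest doublet scores (Scrublet in scanpy 1.11.5) were removed at 0.8% per 1000 cells, because its automatic threshold marked 1 to 6 cells per library. Classes were called from marker shares, with thresholds set after marker values, and those of Ncl and Npm1, had been seen: tumour-type hepatocytes had at least 0.5% hepatocyte and 0.2% tumour-type marker UMIs (129 of them lay below 0.3%), and other hepatocytes at least 3% and at most 0.1%.

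UMIs were summed per library and class of at least 10 cells and fitted over all genes with edgeR 4.0.16 (quasi-likelihood, TMM, filterByExpr, two-sided, Benjamini-Hochberg, threshold 0.05) in R 4.3.3, with library as a block between classes. The 34 members, the lists and the rule for named genes (the 12 members of smallest p, the largest p of each role, 2 genes per list and per genotype comparison) were chosen with earlier results of these data known. The fits were tested on simulated counts. Same-numbered knockout and control libraries deviated together in NK cells and ILC1 (correlations 0.242, 0.249 and 0.305) and in neutrophils (0.714, 0.392 and 0.139). Correlations in the other classes were positive too, from 0.06 in B cells to 0.517 in endothelial cells. The labels do not state a pairing, and this check cannot tell pairing from shared depth or quality. The main genotype fits therefore had no block, and a block by number was an alternative. Alternatives included DESeq2 1.42.0, thinning, mice as units, other thresholds and leaving out each library.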

Additional observations from a re-analysis of the deposited data

Results flagged for a closer look

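Of 78 groups of 5 or 6 libraries examined for a sample far from the others, 4 held one, about as many as the 1 in 20 that chance gives. Npm1 in tumour-type hepatocytes was lowest in control 1, at 4035 CPM. Dkc1 in tumour-type hepatocytes was highest in knockout 1, at 196.1 CPM. In blood cells Nop14 was highest in control 2, at 44.8 CPM, and Nob1 was highest in knockout 1, at 28.6 CPM.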

How the results depend on the processing

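Between tumour-type and other hepatocytes, 31 to 33 members rose when each library was left out in turn, and 32 with mice as units. The count was 21 (of 25 testable) with cells of 1000 to 10000 UMIs only, where fewer cells and UMIs entered. Members could be testable there through tumour-type cells alone. None fell under any alternative. Pno1 turned from -0.43 to 0.16 on the log2 scale there (edgeR adjusted p = 0.845). Rrp12 no longer passed with mice as units (1.45) or without control 3 (1.64), Rrs1 and Nop16 not after thinning (0.49 and 0.90), and Gar1 not with cells of 1000 to 10000 UMIs (0.88); the cause was not tested. Library totals without TMM gave a member median of 2.76, with an all-gene median of 0.87. Against blood cells, 25 (of 28 testable) to 34 members rose and none fell, with Pes1, Ddx18 and Ddx21 not passing with cells of 1000 to 10000 UMIs. Members could be testable through tumour-type cells alone in this comparison too. The main fits called 26.1% of all genes tested higher against other hepatocytes and 40.6% against blood cells. The share of all genes that rose is not given for the alternatives.

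Knockout against control gave 0 called members under every alternative run, with or without the replicate block, so the block changed no call. The member median changed sign after thinning in tumour-type cells (0.011), with mice as units (-0.018) or without a library (range -0.024 to 0.121) in B cells, and without multiplets (-0.015) or without a library (range -0.218 to 0.186) in monocytes and macrophages. In neutrophils it was 0.171 with no filter, 0.141 with the replicate block and -0.554 to 1.412 without 1 library. Nob1 in B cells was -0.359 after thinning and -0.055 (without knockout 1) to 0.744 without 1 library. In neutrophils Ncl ran from -0.739 to 0.295 and Nhp2 from -0.370 to 1.553 without 1 library. Depth limits the other hepatocytes, where 5 members rest on fewer than 10 UMIs, and the neutrophils, where 4 of 34 members could be tested. Only 130 of 902 tumour-type cells of libraries 3 could be given to a mouse.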
